A study of Mus musculus with 4 samples.

Results

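The genes described here encode the proteasome and the proteins that assemble, cap or inhibit it, measured in primary mouse T cells. They were taken as every gene whose mouse symbol reads Psm, a letter from a to g and a number, pseudogenes left out, which gave 50 of the 50600 annotated genes. Of the 50, 14 encode the constitutive 20S core, 3 the catalytic subunits of the immunoproteasome, 2 core subunits of other tissues, 17 the 19S regulatory particle, 7 assembly chaperones, 4 the activators PA28 and PA200 and 1 the inhibitor PI31. Psmc3ip, a factor of meiotic recombination, and Psme2b, a copy of Psme2, matched by symbol only. RNA was sequenced in 4 libraries of 1 group, biological replicates 1 to 4 of T cells from the inbred strain C57BL/6NJ, with 47558517 to 273136467 fragments assigned to genes. No genotype change or treatment is labelled, age and developmental stage are given as unknown, sex as not collected, and 1 donor entry covers all libraries, so that separate animals are not stated. In the file headers, the alignments of all libraries are named with Th0, activated and 24h, and the labels link a protocol for differentiating CD4+ T cells. Total RNA is the titled assay, but the name of the protocol linked for library construction says PolyA+. With 1 group, no condition could be compared, and the values describe the order of levels within a library and the spread between libraries.

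The 26S proteasome degrades proteins that carry ubiquitin chains. Its barrel, the 20S core, is a stack of rings of α subunits, which gate the entry, and of β subunits, of which β1, β2 and β5 cut peptide bonds. The 19S particle binds the ubiquitin chain, removes it and unfolds the substrate with a ring of ATPases. In lymphocytes and in cells exposed to interferon γ, β1i, β2i and β5i can take the places of the constitutive catalytic subunits, and the peptides made by this immunoproteasome feed antigen presentation by MHC class I.

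The T-cell identity was checked against marker genes. In every library, 6 of 7 T-cell markers reached 10 TPM, among them Cd4 at 697 TPM ± 37.9 (SD, n = 4), while Cd8a, which marks the other main T-cell lineage, was at 0.839 ± 0.0254. TPM is the count divided by the gene's exon length and scaled to the same sum in each library. The 5 B-cell markers summed to between 3.33 and 7.01 TPM per library. Summed levels were 0.355 to 1.16 TPM for 6 macrophage and neutrophil markers, 0.404 to 0.777 for 5 dendritic-cell markers and 0.298 to 0.903 for 4 natural killer cell markers, and the 5 red-cell and platelet markers were at 0. In bulk RNA, fewer cells of a type and less RNA per cell cannot be told apart.

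Exon length bears on every comparison between genes. The length in the files is the union of all annotated exons of a gene, which includes exons of retained-intron transcripts. Psmb9 has 3659 such bases but 1351 in its principal protein-coding transcript, whereas Psmb5 has 871 by either measure. Levels are therefore given per exon union and, where the order turns on it, also per principal transcript. The latter divides the same count, over all annotated exons of the gene, by the length of the principal transcript. It is therefore not the level of that transcript alone. From exon union to principal transcript, the median of the log2 shifts of single genes was -0.28 over all genes at 1 TPM or more. It was 0.16 over the proteasome genes at that level.

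The promoters of the catalytic subunits and of some 19S genes are shown because they hold letters that named transcription factors bind. Searches of both strands of RefSeq promoter windows (GRCm38.p6), from 250 bases before to 50 after each start, covered 42 of the 50 genes in 45 windows. No window was searched for Psma8, Psmb1, Psmb2, Psmb7, Psmc3, Psmd3, Psmd7 and Psmg2. Positions count from the RefSeq start, with negative values upstream, and the letters found are in capitals. The antioxidant response element core TGACNNNGC is bound by NRF1 (gene Nfe2l1), which raises proteasome genes when the proteasome is inhibited. It was found in Psmb5, which encodes β5, at -47 (printed chr14:54618023-54618082, minus strand) and in Psmb6, which encodes β1, at -9 (printed chr11:70525297-70525356, plus strand). Psmc6, Psmd9, Psmd12 and Psme4 held these letters too, and 6 of the 45 windows (13.3%) compare with 12.4% of all windows.
Psmb5: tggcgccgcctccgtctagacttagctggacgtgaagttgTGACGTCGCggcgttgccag
Psmb6: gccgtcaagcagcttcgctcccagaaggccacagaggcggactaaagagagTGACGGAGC

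The immunosubunit genes were searched for the sites of interferon signalling. Psmb8, which encodes β5i, held the γ-activated site TTCNNNGAA at -97 (printed chr17:34198087-34198116, plus strand). Psmd2 and Psmg1 held these letters too and Psmb9 and Psmb10 did not, and 3 of the 45 windows (6.67%) compare with 8.3% of all windows. Psmb9, which encodes β1i, lies head to head with the peptide transporter gene Tap1, their starts 226 base pairs apart, and held the CCAAT box as its reverse complement at -8 (printed chr17:34187331-34187360, minus strand). GENCODE annotates exons over both stretches. The interferon-stimulated response element core GAAANNGAA was not in the windows of Psmb8, Psmb9 or Psmb10.
Psmb8: gtcctccgctgTTCCCAGAAgatgcccccc
Psmb9: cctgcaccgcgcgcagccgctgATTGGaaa

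The letters CCGGAAG, bound by ETS factors, were held by 16 of the 45 windows (35.6%, against 8.86% of all 32851 windows), which belong to 15 genes. Psmc1, an ATPase of the 19S base, Psmd2, a scaffold of the base, and Psmd6, a lid subunit, show the site on either strand (printed chr12:100110162-100110191 plus, chr16:20651592-20651651 plus and chr14:14120973-14121002 minus). GENCODE annotates exons over the printed stretches of Psmc1 and Psmd6, and none over that of Psmd2.
Psmc1: ttggtggatgcaCTTCCGGcggtggcgatt
Psmd2: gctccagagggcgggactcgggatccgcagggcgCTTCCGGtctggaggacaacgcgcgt
Psmd6: ccagagacgcgaCCGGAAGtcagactggcg

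The other letters were found in 24 windows for the GC box GGGCGG (53.3% against 35.7% of all), in 15 for CCAAT (33.3% against 37.4%), in 7 for the interferon-stimulated response element core (15.6% against 8.56%) and in 6 for the antioxidant response element core (13.3% against 12.4%). Of the activator genes, Psme1 held the interferon-stimulated response element core 10 bases after its start, and Psme2, searched in 2 windows, did not hold it. The other genes with this core were Psmb3, Psmb4, Psmc2, Psmd4, Psmd9 and Psmg4. Matches of letters on either strand are descriptions, and some overlap, such as the GC box and the antioxidant response element core in Psmd9.

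Nearly every proteasome gene was found at a high RNA level. A level of 1 TPM was reached in every library by 48 of the 50 genes (22.7% of all annotated genes), 10 TPM also by 48 (16.0% of all) and 100 TPM by 37 (3.98% of all), all per exon union. Their median was 214 TPM per exon union. Together they took 13030, 12980, 12400 and 12640 TPM in replicates 1 to 4, so that the sum of the family differed little between libraries. Below 100 TPM, as the plot of levels by role shows, were Psma3, the immunosubunits Psmb9 and Psmb10, all chaperones of the 19S base, Psmg3, Psme4, Psmf1 and the genes matched by symbol only. The core subunits of other tissues, which are not in the plot, were below it too.

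**Figure D1:**
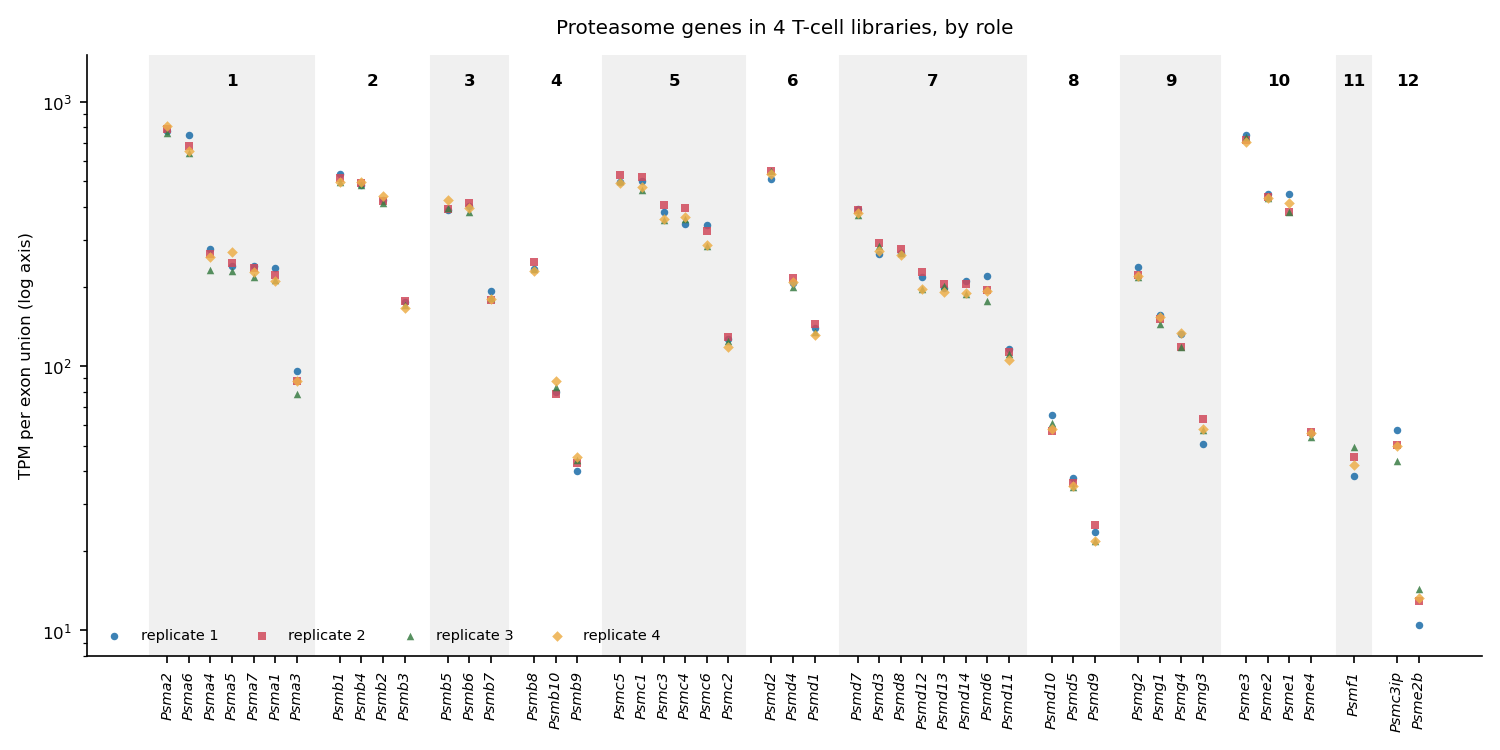
TPM per exon union (log axis) of the 48 proteasome genes above 1 TPM, 1 point per library, grouped as 1 α ring, 2 structural β, 3 constitutive catalytic β, 4 immunoproteasome β, 5 ATPases of the 19S base, 6 other 19S base subunits, 7 19S lid, 8 chaperones of the 19S base, 9 chaperones of the 20S core, 10 activators, 11 inhibitor and 12 matches by symbol only. Psma2 at 785 TPM is the highest and Psme2b at 12.8 the lowest, and the points of a gene lie close together against the distance between genes.

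The constitutive catalytic subunits were all present. Psmb5, which encodes the chymotrypsin-like β5, was at 391, 393, 398 and 424 TPM per exon union in replicates 1 to 4. Psmb6, which encodes the caspase-like β1, was at 403, 416, 383 and 398 TPM. Psmb7, which encodes the trypsin-like β2, was at 193, 178, 181 and 180 TPM. On this scale the libraries of Psmb5 and Psmb6 overlapped, and those of Psmb7 lay below both. Per principal transcript the order turned in all 4 libraries, with Psmb6 highest at 646 TPM ± 20.9 (SD, n = 4), Psmb7 at 372 ± 13.6 and Psmb5 lowest at 276 ± 10.2.

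All immunosubunits were detected in all libraries. Psmb8 was at 233, 247, 233 and 228 TPM per exon union, Psmb10, which encodes β2i, at 79.7, 78.6, 83.1 and 87.9 TPM, and Psmb9 at 40.0, 43.0, 44.2 and 45.5 TPM. Psmb8 was the highest of the immunosubunits in every library, by 1.51 ± 0.11 (SD, n = 4) on the log2(TPM + 1) scale over Psmb10 and by 2.42 ± 0.10 over Psmb9. Per principal transcript these differences were 1.87 ± 0.11 and 1.75 ± 0.10. Psmb9 lay below Psmb10 per exon union, by -0.92 ± 0.05, and above it per principal transcript, by 0.13 ± 0.05.

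Each immunosubunit was set against the constitutive subunit whose place it takes. Psmb9 was lower than Psmb6 in all 4 libraries, by -3.18 ± 0.11 on the log2(TPM + 1) scale per exon union and by -2.99 ± 0.11 per principal transcript. Psmb10 was lower than Psmb7 in all 4 libraries, by -1.14 ± 0.10 per exon union and by -2.32 ± 0.10 per principal transcript. Psmb8 was lower than Psmb5 per exon union, by -0.77 ± 0.09, whereas per principal transcript the difference was -0.02 ± 0.09, with Psmb8 higher in replicates 1 and 2 and lower in replicates 3 and 4, and on the scale of CPM, counts scaled to the library total with no length, Psmb8 was higher by 0.88 ± 0.09. The order of Psmb8 and Psmb5 thus turned on the length used, and that of the other immunosubunits with their constitutive partners did not. The two-sided exact sign-flip permutation test over 4 libraries cannot go below p = 0.125, which 18 of the 20 gene pairs compared reached (Benjamini-Hochberg adjusted p = 0.139). Psmb5 minus Psmb6 (exact p = 0.875) and Psme1 minus Psme2 (exact p = 0.250) did not.

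**Figure D2:**
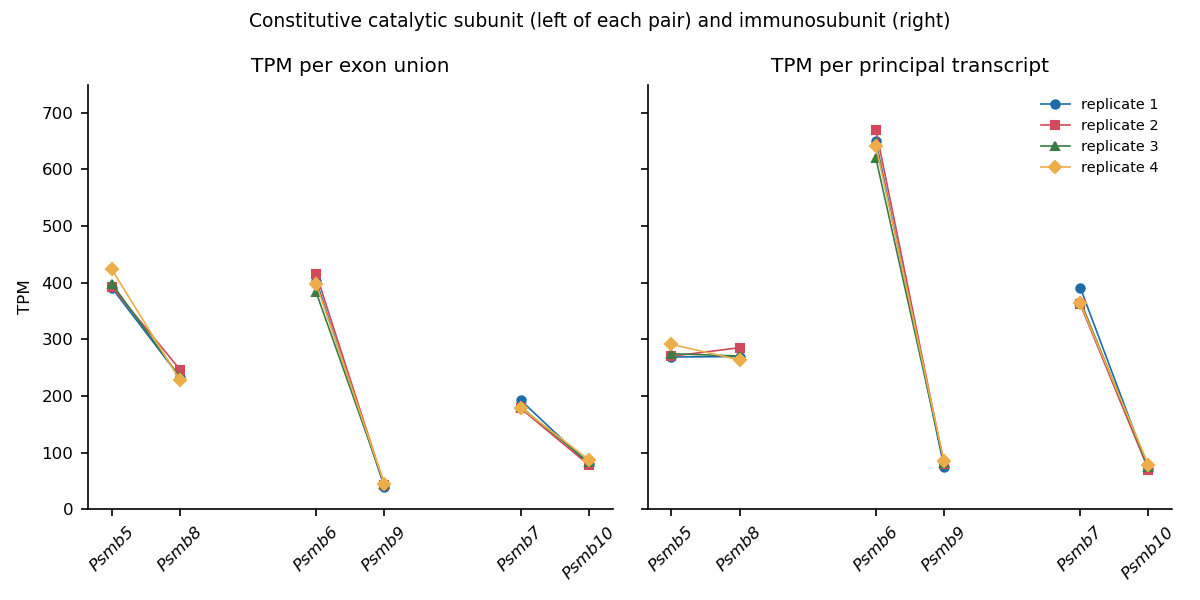
TPM of each constitutive catalytic subunit gene and its immunosubunit, joined by a line per library, with lengths of the exon union (left) and of the principal transcript (right). The lines of Psmb6 to Psmb9 and of Psmb7 to Psmb10 fall in both panels, while those of Psmb5 to Psmb8 fall on the left, from a mean of 402 to 236 TPM, and are near level on the right, from 276 to 273.

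As a share of their pair, the immunosubunits ranked in the order Psmb8, Psmb10 and Psmb9. Psmb8 made up 37.4, 38.6, 37.0 and 35.0% of the summed TPM of Psmb8 and Psmb5 in replicates 1 to 4 per exon union, and 49.6% ± 1.59 per principal transcript. Psmb10 made up 29.2, 30.6, 31.5 and 32.8% of its pair with Psmb7, and 16.6% ± 0.980 per principal transcript. Psmb9 made up 9.03, 9.37, 10.4 and 10.3% of its pair with Psmb6, and 11.1% ± 0.732 per principal transcript. The 3 immunosubunits together held 26.8% ± 0.459 of the RNA of all 6 catalytic subunits per exon union and 24.8% ± 0.532 per principal transcript. On the CPM scale the shares were 64.8% for Psmb8, 18.3% for Psmb10 and 17.4% for Psmb9. These are shares of RNA, and protein was not measured.

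The core subunits of other tissues were near or at 0. Psmb11, the β5t subunit of thymic cortical epithelium, had no fragment in any library, which allows up to 0.0504 TPM at the floor of 3 fragments in the shallowest library. Psmb5, its neighbour 7314 bases away on chromosome 14, was at least 7971-fold higher in every library, each library set against its own floor of 3 fragments for Psmb11. Psma8, the α4s subunit of the testis, had 12, 71, 1 and 6 fragments, or 0.400, 0.530, 0.0418 and 0.253 TPM, with exact 95% Poisson intervals from 0.206 to 0.698 TPM in replicate 1 and from 0.00106 to 0.233 in replicate 3, which cover counting error only. Of 5 thymic epithelium markers, Foxn1 and Krt8 were at 0, Epcam was at 1.20 TPM ± 0.364, Prss16 at 1.83 ± 0.0790 and Ly75 at 30.2 ± 1.54.

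The other core subunits, which stand in fixed ratio in the complex, had uneven RNA levels. In the α ring, Psma2 was at 779, 789, 765 and 808 TPM per exon union and Psma6 at 746, 680, 641 and 652, whereas Psma3 was at 95.6, 87.6, 78.3 and 87.8. The highest and lowest means of the 7 α genes were 9.00-fold apart per exon union and 6.74-fold apart per principal transcript, with Psma3 lowest on either scale. The principal transcript of Psma3 has 2846 counted bases against 944 in Psma2. On the CPM scale the α genes were 2.58-fold apart and Psma5 was the lowest. The structural β genes Psmb1, Psmb2, Psmb3 and Psmb4 were 2.98-fold apart per exon union, with Psmb3 lowest at 172 TPM ± 4.80, and 1.58-fold apart per principal transcript, where Psmb1 was lowest at 352 ± 10.7 and Psmb3 next at 355 ± 9.83.

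The 19S genes followed in the same range. The 6 ATPases, which unfold the substrate, lay between Psmc2 at 125 TPM ± 4.47 and Psmc5 at 505 ± 17.0 per exon union, 4.05-fold apart, and 1.94-fold apart per principal transcript, from Psmc6 to Psmc3. Of the other base subunits, Psmd2 was at 534 TPM ± 18.5, the ubiquitin receptor Psmd4 at 207 ± 6.51 and the scaffold Psmd1 at 138 ± 5.76 per exon union. The 8 lid genes lay between Psmd11 at 112 TPM ± 4.32 and Psmd7 at 384 ± 9.84 per exon union, and between Psmd11 at 172 ± 6.69 and Psmd3 at 444 ± 19.8 per principal transcript. Psmd14, the deubiquitinase that removes the ubiquitin chain, was at 198 TPM ± 11.2 per exon union. Psmd14 exceeded the other proteasome deubiquitinases, Uchl5 by 0.61 ± 0.06 and Usp14 by 1.43 ± 0.01 on the log2(TPM + 1) scale per exon union, and by 0.70 ± 0.06 and 0.97 ± 0.01 per principal transcript. Psmd4 exceeded Adrm1, another ubiquitin receptor of the 19S base, by 1.07 ± 0.07 per exon union and 0.61 ± 0.07 per principal transcript.

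The spread within a complex was set beside that of CCT, a folding chaperonin whose 8 different subunits also stand in fixed ratio. The SD of the subunits' log2(TPM + 1) means was 1.07 for the α ring, 0.74 for the ATPases, 0.52 for the lid and 0.60 for CCT per exon union. Per principal transcript it was 1.02, 0.39, 0.49 and 0.38, and on the CPM scale 0.55, 0.34, 0.50 and 0.13. Of these 4 sets of genes, the α ring had the widest spread on each scale, and the order of the others changed with the scale. The lid set is the 8 genes taken by symbol. It leaves out the lid subunit Sem1, at 66.5 TPM ± 4.26 per exon union and 110 ± 6.88 per principal transcript, below all 8. The spread of the lid with Sem1 was not computed, so its place in this order covers the 8 genes only.

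**Figure D3:**
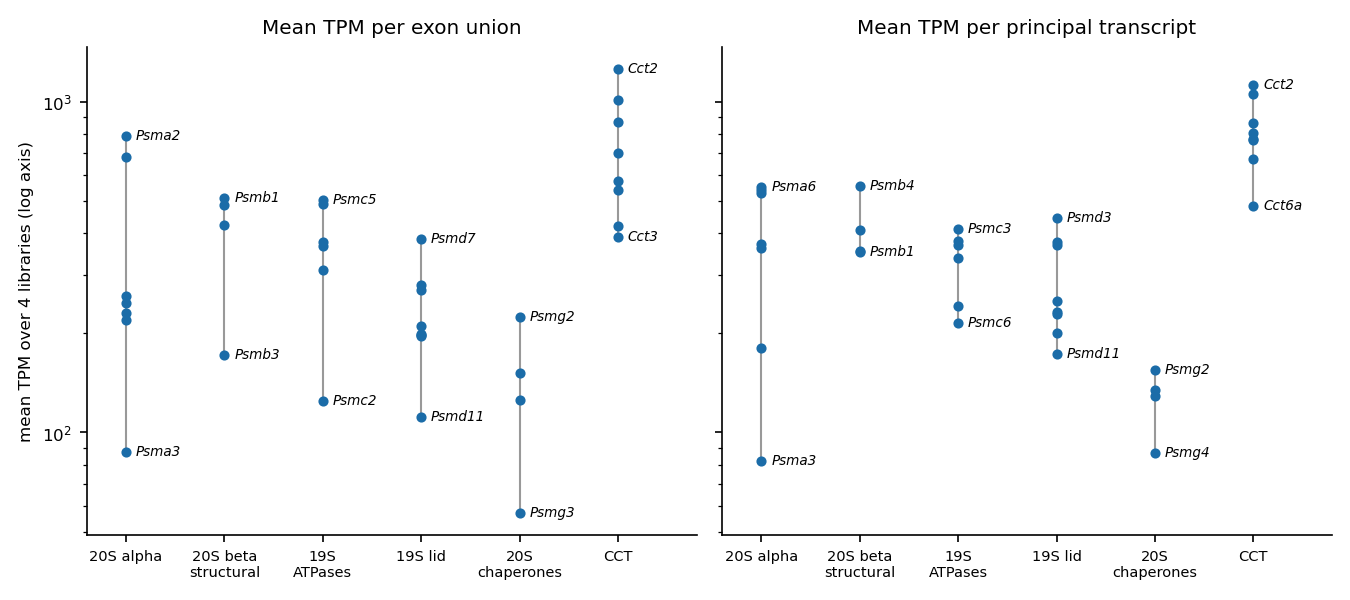
Mean TPM over 4 libraries (log axis) of the subunits of 5 proteasome groups and of CCT, 1 point per gene, per exon union (left) and per principal transcript (right), with the lowest and highest gene named. The ATPases close up from 4.05-fold to 1.94-fold between the panels, and the α ring stays wide, at 9.00-fold and 6.74-fold.

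The chaperones that build the complex had medians of 139 TPM for the 20S core and 36.0 for the 19S base, against 246 for the α genes, per exon union. Of the 20S chaperones, Psmg2 was at 238, 221, 217 and 219 TPM per exon union, Psmg1, its partner, at 152 ± 5.08, Psmg4 at 126 ± 8.12 and Psmg3, the partner of Psmg4, at 57.2 ± 5.09. Psmg3 lay below Psmg4 per exon union, by -1.13 ± 0.20 on the log2(TPM + 1) scale, and above it per principal transcript, by 0.57 ± 0.20. The chaperones of the 19S base, Psmd10, Psmd5 and Psmd9, were at 60.3 ± 3.95, 36.0 ± 1.37 and 23.1 ± 1.56 TPM per exon union and within 1.09-fold of each other per principal transcript, from 40.8 to 44.3. Pomp, the maturation factor of the core, was at 92.2 TPM ± 5.21 per exon union and 210 ± 11.8 per principal transcript.

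Among the activators, the gene of PA200 lay below the 3 PA28 genes. Psme1 and Psme2, which encode the interferon-inducible PA28αβ cap, were at 450, 382, 382 and 415 TPM and at 450, 436, 432 and 432 TPM per exon union. Psme3, which encodes the nuclear PA28γ, was at 750, 718, 736 and 708 TPM. Psme3 exceeded Psme1 per exon union, where Psme1 minus Psme3 was -0.84 ± 0.10 on the log2(TPM + 1) scale, but not per principal transcript, where it was 0.00 ± 0.10 and the means were 557 ± 44.2 and 555 ± 14.5 TPM. Psme4, which encodes PA200, was at 55.6 TPM ± 1.15, below Psme3 in all 4 libraries on either length. Psmf1, which encodes the inhibitor PI31, was at 38.3, 45.2, 49.6 and 42.4 TPM. Psme2b was at 12.8 TPM ± 1.63, and because it nearly copies Psme2 its counts are uncertain.

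Other genes of the pathway were described from fixed lists. Each of 14 other proteasome-bound and assembly genes reached 10 TPM in every library, with a median of 95.2 TPM, and so did each of 9 genes of the NRF1 pathway, with a median of 44.1. In the latter, Nfe2l1 was at 115 TPM ± 4.76 and its relative Nfe2l2, which encodes NRF2, at 33.0 ± 1.21. Of 13 regulators of the immunosubunit genes, 12 reached 10 TPM in every library, among them Irf1 at 16.4 ± 0.543, the MHC class I transactivator Nlrc5 at 30.7 ± 2.71 and the interferon γ receptor gene Ifngr1 at 32.0 ± 1.84, and Stat2 was at 7.06 ± 0.644. Each of 9 peptide-loading genes reached 10 TPM, with B2m, the light chain of MHC class I, at 1679 ± 157. Tap1, which shares its promoter region with Psmb9, was at 111 ± 10.6 against 43.2 ± 2.34 for Psmb9 per exon union. Per principal transcript, Tap1 was at 142 ± 13.6 and Psmb9 at 80.5 ± 4.39. The 6 genes of ubiquitin and its activation had a median of 376 TPM, with the ubiquitin-activating enzyme gene Uba1 at 695 ± 32.9 and its relative Uba6 at 35.0 ± 1.22.

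Spread between the 4 libraries was tested over all genes by the residual deviance of an edgeR model with 1 mean per gene, adjusted by Benjamini-Hochberg. No proteasome gene of the 48 tested passed an adjusted p of 0.05 (0.362% of the 12712 genes tested did), and the smallest adjusted p was 0.781 by edgeR. With DESeq2 size factors the count was 0 as well. At an unadjusted p under 0.05 were 3 of the 48 (5.54% of all genes tested), near the background share. The median residual deviance was 1.39 for the proteasome genes, 1.98 for all genes and 1.73 for the 1820 genes in the level range of the middle of the family. Of the 48, 46 stayed within 0.2 of their mean on the log2 scale in all 4 libraries, or 95.8%, against 69.2% of all genes tested and 97.1% of the 1820 genes of like level, so that this share is near that of genes at the same level.

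**Figure D4:**
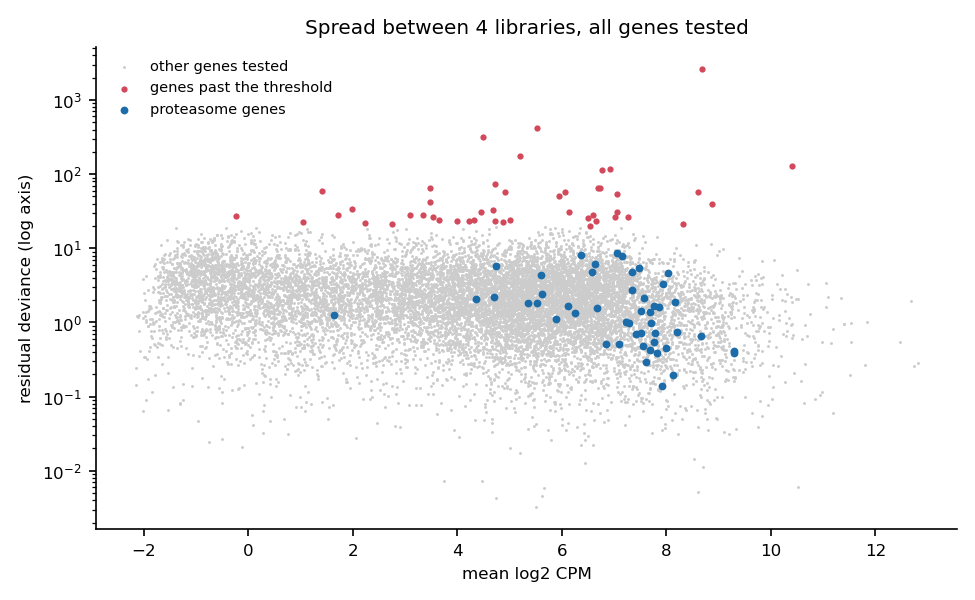
Residual deviance of each of the 12712 genes tested (log axis) against its mean log2 CPM, with the 48 proteasome genes in blue and the 46 genes past the threshold in red. All proteasome genes lie below the red points, and their median deviance is 1.39 against 1.98 for all genes.

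The 3 genes with an unadjusted p under 0.05 belonged to different roles. The lid gene Psmd6 was at 220, 194, 176 and 193 TPM, with an edgeR adjusted p of 0.781. The inhibitor gene Psmf1, with its values above, had an edgeR adjusted p of 0.853. The ATPase gene Psmc6 was at 344, 326, 285 and 288 TPM, with an edgeR adjusted p of 0.873. Psmd6 and Psmc6 were highest in replicate 1 and lowest in replicate 3, and Psmf1 was lowest in replicate 1 and highest in replicate 3.

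The median log2 deviation of the 48 genes from their own mean was 0.04, 0.00, -0.04 and -0.01 in replicates 1 to 4. Replicate 1 was the highest library for 22 of the 48 genes (45.8%, against 33.1% of all genes tested), replicate 2 for 14 (29.2%, against 18.8%), replicate 3 for 3 (6.25%, against 24.2%) and replicate 4 for 9 (18.8%, against 23.9%). Among the 1820 genes of like level, the shares were 35.2, 17.9, 28.5 and 18.4% in replicates 1 to 4. Replicate 2 was the highest for 4 of the 6 ATPases. In the α ring, 5 of 7 genes were highest in replicate 1, and all 7 lay below their mean in replicate 3. In replicate 4, Psmb9 and Psmb10 had their highest deviations, 0.09 and 0.11, and Psmb8 its lowest, -0.03. These deviations are small, and the spread of none of these genes stood out (edgeR unadjusted p = 0.61, 0.605 and 0.922). The genes share libraries and are not replicates, so no test was made of the counts of highest libraries.

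**Figure D5:**
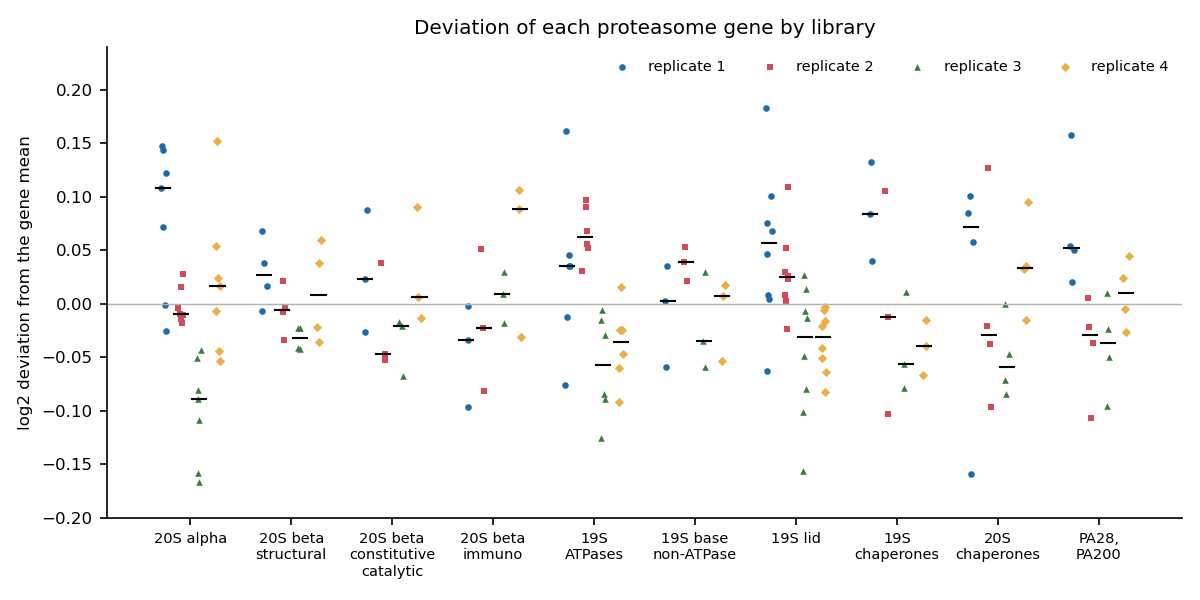
Log2 deviation of proteasome genes from their own mean over 4 libraries, by role and library, with a bar at the median. Psmf1, Psmc3ip and Psme2b, from the smallest groups, are not drawn. In replicate 1 they deviated by -0.18, 0.20 and -0.22. The α genes have their highest median in replicate 1, at 0.11, and their lowest in replicate 3, at -0.09, while in replicate 4 the immunosubunits Psmb9 and Psmb10 lie above 0 and Psmb8 below it.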

How the data were processed

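RNA of mouse T cells was measured in 4 libraries of 1 group. The counts were deposited by the authors as whole fragments per gene: pairs with both ends aligned over GENCODE vM13 exons, counted by featureCounts 1.4.6-p4 with strand setting 2, per the file headers. The build is mm10 per the labels, the alignment names in the headers carry STAR, and its settings are not given in the sources used here. Replicate numbers come from the labels, which do not state separate animals, and p-values here reflect nothing beyond differences among these samples, possibly technical ones. Every pair of libraries differed by more than sampling noise (9.94 to 36.9 chi-square units per degree of freedom), and all were kept.

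Symbols came from GENCODE vM21 (50376 of 50600 identifiers matched). The 4 pseudogenes left out of the family held 0 to 20 fragments over all libraries. Exons of 4 members overlap another gene on the same strand (Psmd1, Psmg3, Psmb5 and Psme2b), and their counts are uncertain. Counts were divided here by the exon union length in the files to give TPM. Principal transcripts were taken from vM21, cut to the counted exons, and their lengths replaced the union length under the same counts. The longest was used where several ranked equally. Of the 50600 genes, 21686 had a principal transcript, and the others kept the union length. With edgeR 4.0.16 (R 4.3.3), 12712 genes passed filterByExpr (minimum count 10), TMM factors lay between 0.998 and 1.00, and residual deviances under a trended dispersion were compared with chi-square (3 degrees of freedom); the script was tested on simulated data. Differences of 20 pairs on log2(TPM + 1) used exact two-sided sign-flip permutation tests (Python 3.11.15, scipy 1.17.1). The detection floor was 3 fragments, or 0.0379 to 0.214 TPM for 1 kb of exons. As PCR copies are not independent, floors and intervals describe counting error alone. Every member could be named, and other genes only from the fixed lists. A gene of the lists is not reported here. Members, lists, pairs and motifs were chosen with earlier results of these data known. Alternatives were DESeq2 size factors (DESeq2 1.42.0), library totals, other filters, a common dispersion, thinning of replicate 2, other pseudocounts, FPKM, CPM, and each replicate left out. Text files that only list other files were not used here.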

Additional observations from a re-analysis of the deposited data

Results flagged for a closer look

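Of 72 sets of 4 values checked for a library far from the others, 2 were picked out, and chance picks about 1 in 20. Psmg2, a chaperone of the 20S core, was at 238.2 TPM in replicate 1, against 217.4 to 220.6 in the others. The log2 difference of Psmd14 minus Usp14 was 1.45 in replicate 1, against 1.42 in each of the others.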

How the results depend on the processing

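No paired analysis was possible because the labels give 1 group. TPM per principal transcript was chosen after seeing the data. Psmb8 minus Psmb5 turned to 0.88 without length (CPM). Shares of Psmb8, Psmb9, Psmb10 and all 3 immunosubunits became 64.8, 17.4, 18.3 and 35.4% without length and 49.6, 11.1, 16.6 and 24.8% per principal transcript. The SD of log2 levels became 0.55 without length and 1.02 per principal transcript in the α ring, 0.34 and 0.39 in the ATPases, 0.50 and 0.49 in the lid, and 0.13 and 0.38 in CCT. Without length and per principal transcript, signs turned for Psmb9 minus Psmb10 (0.17 and 0.13), Psmb5 minus Psmb6 (-1.09 and -1.22), Psmb5 minus Psmb7 (-0.83 and -0.42), Psme1 minus Psme2 (0.22 and 0.0089) and Psmg3 minus Psmg4 (1.21 and 0.57), and for Psme1 minus Psme3 per principal transcript (0.0023). With each replicate left out in turn, Psmb5 minus Psmb6 ran from -0.022 to 0.034. By FPKM, 16 proteasome genes were at 100 or more, in place of 37. FPKM uses the same lengths and differs from TPM by 1 factor per library, which makes 100 a stricter cut for every gene. The share of all genes at 100 FPKM was not taken. Over all genes, 862 passed the variation test with a common dispersion, in place of 46, and 25 to 40 with a replicate left out, 25 of them without replicate 2; no proteasome gene passed under any of the 11 settings. Beyond the changes of length and, for FPKM, of scale, the cause of these moves was not tested. Of the 20 pairs, 13 kept their sign per exon union, per principal transcript and by CPM. At 3 fragments, the depth of the shallowest library limits detection to 0.214 TPM for 1 kb of exons.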
